A study of Homo sapiens with 8 samples.

Results

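The ID proteins and the genes of bone morphogenetic protein (BMP) signaling were described in prostate cancer cells in which the transcription factor gene MYCL had been overexpressed or knocked down. The set held 10 genes, taken by name from the 78691 genes of the count table: ID1, ID2, ID3, ID4, BMP4, BMP7, SMAD6, SMAD7, SMAD9 and BAMBI. Each name matched 1 row, so every member was measured in each of the 8 libraries.

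RNA-seq of poly(A) RNA was performed on 4 groups of 2 libraries. C4-2B is a castration-resistant derivative of the LNCaP line with an androgen receptor-positive adenocarcinoma phenotype. The C4-2B control group carried an empty vector, and the C4-2B MYCL group carried a lentiviral vector in which the EF1A promoter drove human MYCL joined to EGFP through a self-cleaving peptide. NCI-H660 is a neuroendocrine prostate cancer line. The shCtrl group carried a non-targeting shRNA and the shMYCL group an shRNA against MYCL; the sources name both an adenoviral and a stable lentiviral shRNA platform, so the vector of these particular libraries is not settled here. Both lines grew in RPMI-1640 with fetal bovine serum and no group was treated with a BMP ligand or inhibitor. Separate cultures are stated only for the C4-2B control libraries, so the p-values below measure the spread between these libraries, which may be technical in the other groups. In bulk RNA, fewer cells that express a gene and less RNA of that gene per cell cannot be told apart.

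BMP ligands such as BMP4 and BMP7 bind type I and type II serine/threonine kinase receptors, which phosphorylate SMAD1, SMAD5 and SMAD9. These receptor-regulated SMADs join SMAD4, enter the nucleus and activate target genes, among which the ID genes are the best known. ID proteins are helix-loop-helix proteins without a DNA-binding basic region that sequester the E proteins TCF3, TCF4 and TCF12, the partners of basic helix-loop-helix lineage factors. SMAD6, SMAD7 and the pseudoreceptor BAMBI restrain the pathway and are themselves BMP or TGF-beta targets.

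The promoter windows of 4 members are shown for their motifs. ID1 and BAMBI passed the test in both cell lines, SMAD6 holds the palindromic SMAD motif and SMAD9 holds an E-box, the motif bound by MYC family dimers. Each window is the 250 bases before a RefSeq start on GRCh38.p14, written in the direction of transcription, and capitals mark matches on either strand to CACGTG (E-box), GGCGCC (GC-rich SMAD motif), GTCTAGAC (palindromic SMAD motif), CCAAT or TATAAA.
ID1: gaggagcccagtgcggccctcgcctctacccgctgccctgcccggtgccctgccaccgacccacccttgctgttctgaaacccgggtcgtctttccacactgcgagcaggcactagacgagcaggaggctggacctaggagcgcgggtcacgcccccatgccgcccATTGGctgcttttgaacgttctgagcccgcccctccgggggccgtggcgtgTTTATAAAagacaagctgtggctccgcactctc
BAMBI: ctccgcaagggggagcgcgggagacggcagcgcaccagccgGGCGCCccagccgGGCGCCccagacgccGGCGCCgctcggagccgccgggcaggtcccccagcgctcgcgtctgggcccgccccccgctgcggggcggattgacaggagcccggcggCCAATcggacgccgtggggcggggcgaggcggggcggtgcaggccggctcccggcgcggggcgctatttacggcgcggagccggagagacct
SMAD6: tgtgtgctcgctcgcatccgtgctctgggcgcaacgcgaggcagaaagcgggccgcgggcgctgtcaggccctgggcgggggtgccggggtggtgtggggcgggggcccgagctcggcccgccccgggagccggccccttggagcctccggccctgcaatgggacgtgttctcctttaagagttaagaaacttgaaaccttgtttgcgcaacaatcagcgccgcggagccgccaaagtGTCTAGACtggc
SMAD9: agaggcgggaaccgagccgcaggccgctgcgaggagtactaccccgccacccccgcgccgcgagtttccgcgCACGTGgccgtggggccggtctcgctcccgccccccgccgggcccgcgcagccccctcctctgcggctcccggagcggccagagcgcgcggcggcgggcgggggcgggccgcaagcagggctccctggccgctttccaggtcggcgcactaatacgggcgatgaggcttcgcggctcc

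The ID1 window lies at chr20:31605039-31605288 on the plus strand, the BAMBI window at chr10:28677271-28677520 on the plus strand, the SMAD6 window at chr15:66701986-66702235 on the plus strand and the SMAD9 window at chr13:36920239-36920488 on the minus strand. In the ID1 window a CCAAT match on the opposite strand began 84 bases before the start, and a pair of overlapping TATAAA matches, 1 on each strand, began 33 and 31 bases before it. The BAMBI window held GGCGCC 3 times, 209, 196 and 181 bases before the start, and CCAAT at 92. The SMAD6 palindrome began 12 bases before the start and the SMAD9 E-box 178 bases before it. A BMP4 window that is not printed also held an E-box, 83 bases before its start, and another BMP4 window held GGCGCC. Over all 35116 windows of this length, CACGTG was found in 6.34%, GGCGCC in 16.4%, GTCTAGAC in 0.182%, CCAAT in 32% and TATAAA in 10.7%. In all, 9 of the 10 members matched 13 windows, of which 4 held none of these motifs. The share with none was not counted over all windows. The matches are letters in a window, and no binding was measured in these libraries.

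The libraries held between 15177071 and 32344170 estimated counts, and mitochondrial genes took 9.63% to 10.7% of them in C4-2B and 3.50% to 3.83% in NCI-H660. MYCL was counted 371 and 320 times in the C4-2B control libraries and 65524 and 70253 times after overexpression, a log2 fold change of 8.26 (SE 0.12, edgeR adjusted p = 3.91e-09), though the counts do not separate introduced from endogenous transcripts. In NCI-H660 it fell from 1863 and 1602 counts with shCtrl to 165 and 198 with shMYCL, 8.35-fold lower after scaling to depth (log2 fold change -3.06, SE 0.15, edgeR adjusted p = 4.29e-09). The 10 luminal markers summed to 2575 to 2581 TPM (transcripts-per-million, corrected for length) in C4-2B control, 1610 to 1761 in C4-2B MYCL and at most 10.5 in NCI-H660, where KLK2, KLK3 and FOLH1 were at 0. The 10 neuroendocrine markers summed to 1287 to 1457 TPM with shCtrl, 1058 to 1185 with shMYCL and at most 7.37 in C4-2B. The 6 leukocyte markers summed to 8.33 to 10.9 TPM in C4-2B control and 24.1 to 26.0 in C4-2B MYCL. Most of that sum was CD68, at 8.30 and 10.8 TPM in control and 23.9 and 25.6 with MYCL, while PTPRC and MS4A1 were at 0 in both. The 7 fibroblast markers summed to 37.0 to 41.9 TPM with shCtrl and 23.5 to 23.7 with shMYCL. Most of that was COL1A2, at 39.8 and 34.7 TPM with shCtrl and 22.8 and 22.4 with shMYCL. COL3A1, DCN, PDGFRB and THY1 were at 0 in both of these groups. The 6 endothelial markers summed to 3.08 to 3.88 TPM with shCtrl and 1.07 to 2.96 with shMYCL, with TIE1 at 0 in both and 1 of the 2 tested (CDH5) called lower. The part of these markers in the results below was not tested.

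ID1, ID2 and ID3 were the most abundant members in C4-2B, and all 4 ID genes in NCI-H660, on the length-corrected TPM scale. In C4-2B control cells ID3 was highest at a mean of 37.8 TPM, followed by ID1 at 23.5 and ID2 at 17.9, and ID4 was close to absent at 0.283 TPM. In shCtrl cells ID2 led at 362 TPM, followed by ID3 at 267, ID1 at 183 and ID4 at 97.1, and neighbours in these orders did not overlap between libraries. In C4-2B MYCL cells the order was ID3 at 40.1 TPM, ID2 at 12.6 and ID1 at 10.5, and in shMYCL cells ID3 at 241, ID2 at 187, ID1 at 99.0 and ID4 at 77.2. ID1 therefore stood above ID2 only in the C4-2B control group, and ID2 above ID3 only in the shCtrl group.

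**Figure D1:**
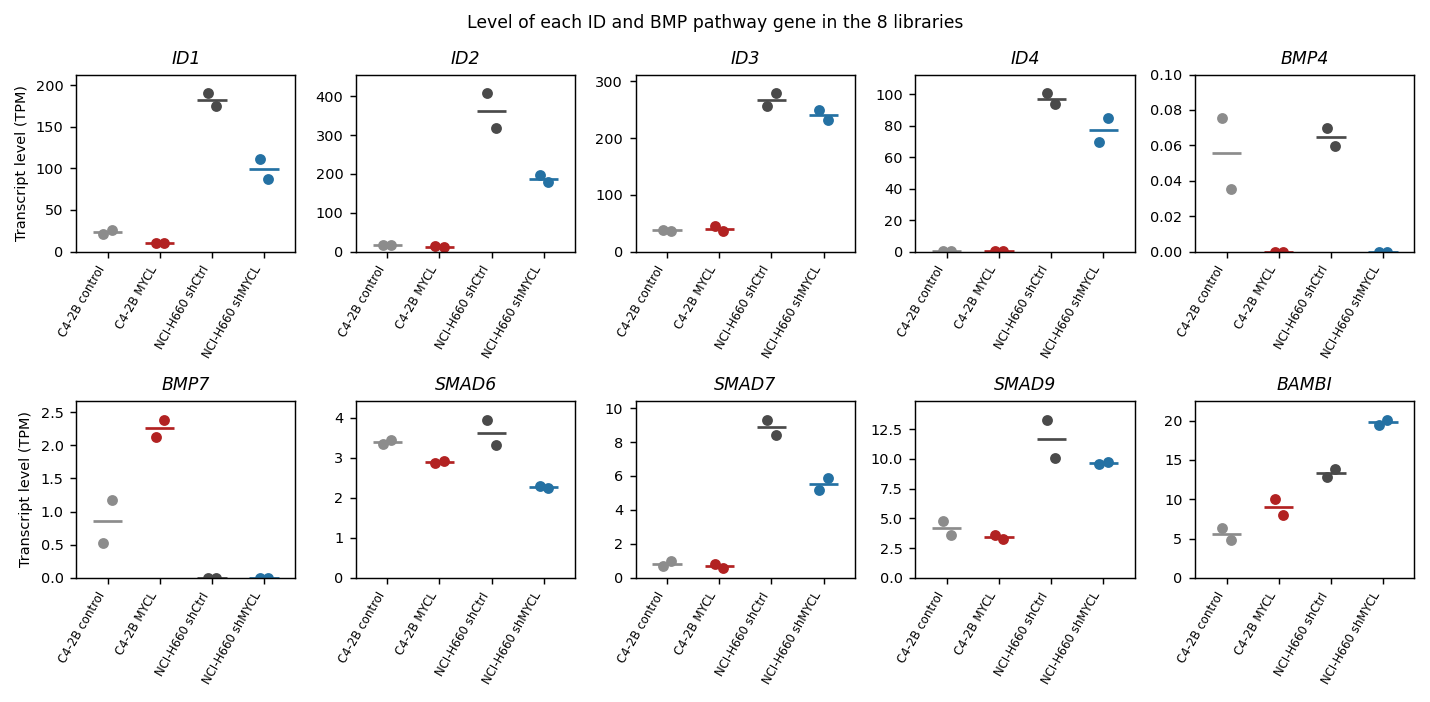
TPM of each of the 10 genes (linear vertical axes, 1 scale per gene) in the 4 groups, with 1 point per library and a bar at the mean of the 2. ID1, ID2, ID3 and ID4 were higher in every NCI-H660 library than in every C4-2B library, BMP7 was at 0 in NCI-H660 and BMP4 stayed below 0.1 TPM throughout.

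The genes that restrain the pathway were expressed at lower levels. BAMBI lay at 5.54 TPM in C4-2B control, 8.97 in C4-2B MYCL, 13.3 in shCtrl and 19.8 in shMYCL. No group overlapped its neighbour in that order in TPM. In counts-per-million scaled over all libraries together, C4-2B MYCL at 13.2 and 11.3 overlapped shCtrl at 10.2 and 11.5. SMAD6 ranged only from 2.26 TPM in shMYCL to 3.63 in shCtrl. SMAD7 lay at 0.842 TPM in C4-2B control and 8.87 in shCtrl. SMAD9, the receptor-regulated SMAD of the set, lay at 4.18 TPM in C4-2B control and 11.7 in shCtrl, where it overlapped BAMBI.

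Of the ligands, BMP4 was counted 3 and 1 times in C4-2B control, 1 time in each shCtrl library and not at all in the other 4 libraries. It passed the filter on low counts in no comparison and is given here by its counts alone. BMP7 had 41 and 57 counts in C4-2B control, 133 and 149 in C4-2B MYCL and 0 in all 4 NCI-H660 libraries. Neither ligand had more than 3 counts in any NCI-H660 library.

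MYCL overexpression in C4-2B was compared with the empty vector to ask which members change with gain of MYCL. ID1 fell, BMP7 and BAMBI rose, and ID2, ID3, ID4, SMAD6, SMAD7 and SMAD9 were not called. A gene was called when its edgeR quasi-likelihood adjusted p was under 0.05 and its log2 fold change at least 0.5 in either direction. Of the 16866 genes tested 11.8% were called higher and 8.12% lower, against 2 and 1 of the 9 members tested, and the members' median log2 fold change was -0.073 against -0.0017 over all genes.

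ID1, which holds progenitor cells of many tissues in an undifferentiated state, lies on chr20:31605283-31606515 (GENCODE annotation of hg38). It was measured at 13.6 and 15.7 CPM (counts-per-million, scaled to depth) in the control libraries and at 6.89 and 7.55 CPM with MYCL. Both MYCL libraries lay below both controls, and the mean was 2.03-fold lower, 7.22 ± 0.468 against 14.7 ± 1.46 CPM (SD, n = 2 each). On the log2 scale the change was -1.02 (SE 0.14, edgeR adjusted p = 0.000888).

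ID2, on chr2:8678845-8684461, was at 15.6 and 15.5 CPM in control and 12.3 and 11.8 CPM with MYCL, without overlap. Its log2 fold change of -0.37 (SE 0.11, edgeR adjusted p = 0.0335) did not reach the fold threshold. An antisense transcript, ID2-AS1, shares 145 exonic bases with ID2 and had 28 to 86 counts per library, and whether counting used the strand is not given in the sources used here. ID3, on chr1:23557926-23559501, was at 22.8 and 21.1 CPM in control and 27.6 and 23.7 CPM with MYCL, a log2 fold change of 0.22 (SE 0.11, edgeR adjusted p = 0.142). These groups did not overlap in CPM, but they did in TPM. ID4, on chr6:19837370-19842197, had 17 and 21 counts in control and 11 and 26 with MYCL, and the groups overlapped.

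BMP7, a ligand of the BMP type I receptors, lies on chr20:57168753-57266641. It was at 1.26 and 2.39 CPM in control and 7.21 and 8.52 CPM with MYCL, so both MYCL libraries exceeded both controls. The mean was 4.37-fold higher, 7.87 ± 0.925 against 1.83 ± 0.802 CPM (SD, n = 2 each), for a log2 fold change of 2.13 (SE 0.32, edgeR adjusted p = 0.00115). In TPM the means were 2.26 and 0.852. The effective transcript length implied by counts and TPM was longer with MYCL by 0.52 on the log2 scale, where the median absolute shift over all genes was 0.017 and so counts and TPM give changes of different size. In the limma test on log2(TPM + 1) without a filter the BMP7 call was lost (log2 fold change 0.84, adjusted p = 0.141).

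BAMBI, a transmembrane protein that resembles a type I receptor without the kinase domain, lies on chr10:28677510-28682932. It was at 7.56 and 5.63 CPM in control and 12.7 and 10.8 CPM with MYCL, again without overlap. The mean was 1.78-fold higher, 11.8 ± 1.37 against 6.59 ± 1.37 CPM (SD, n = 2 each), for a log2 fold change of 0.83 (SE 0.18, edgeR adjusted p = 0.008). The call was lost in the unfiltered limma test (log2 fold change 0.61, adjusted p = 0.134).

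The SMAD members were not called after MYCL overexpression. SMAD6, which competes with receptor-regulated SMADs, lies on chr15:66702236-66782849 and was at 8.24 and 9.07 CPM in control and 7.92 and 8.52 CPM with MYCL, with overlap. SMAD7, on chr18:48919853-48950965, was at 2.06 and 2.44 CPM in control and 1.52 and 1.32 CPM with MYCL, a log2 fold change of -0.66 (SE 0.33, edgeR adjusted p = 0.155). SMAD9, on chr13:36844831-36920887, was at 19.0 and 15.4 CPM in control and 16.4 and 15.3 CPM with MYCL, with overlap. For SMAD7 the implied length moved by -0.55 on the log2 scale, and its TPM overlapped between the groups, with means of 0.842 in control and 0.705 with MYCL.

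Knockdown of MYCL in NCI-H660 was compared with shCtrl to ask which members change with loss of MYCL. ID1 and ID2 fell and BAMBI rose, so ID1 and BAMBI moved in the same direction as after overexpression in C4-2B. Of the 16980 genes tested 7.18% were called higher and 8.99% lower, against 1 and 2 of the 8 members tested. The members' median log2 fold change was -0.34 against -0.0029 over all genes. In the limma test on log2(TPM + 1) without a filter, which called 1 gene in all, the calls of ID1 (-0.89, adjusted p = 0.0968), ID2 (-0.94, adjusted p = 0.0968) and BAMBI (0.54, adjusted p = 0.113) were lost.

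ID1 was at 83.0 and 82.5 CPM with shCtrl and 49.4 and 38.9 CPM with shMYCL. Both knockdown libraries lay below both controls, and the mean was 1.87-fold lower, 44.2 ± 7.44 against 82.7 ± 0.349 CPM (SD, n = 2 each). On the log2 scale the change was -0.91 (SE 0.12, edgeR adjusted p = 8.68e-05).

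ID2 is the ID protein known for its interaction with the retinoblastoma protein. It was at 251 and 208 CPM with shCtrl and 123 and 113 CPM with shMYCL, without overlap. The mean was 1.94-fold lower, 118 ± 7.09 against 229.6 ± 29.9 CPM (SD, n = 2 each), for a log2 fold change of -0.96 (SE 0.11, edgeR adjusted p = 3.18e-05). Among the members it had the smallest adjusted p in this comparison.

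ID3 was at 104 and 122 CPM with shCtrl and 104 and 98.0 CPM with shMYCL, and the groups overlapped (log2 fold change -0.16, SE 0.11, edgeR adjusted p = 0.305). ID4, known for its part in neural differentiation, had 3347 and 3510 counts with shCtrl and 2256 and 2665 with shMYCL. Its CPM did not overlap, with means of 194 ± 5.34 and 159 ± 15.4 (SD, n = 2 each), but the log2 fold change of -0.28 (SE 0.11, edgeR adjusted p = 0.0657) was not called.

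BAMBI was at 10.7 and 12.1 CPM with shCtrl and 16.8 and 17.5 CPM with shMYCL. The groups did not overlap and the mean was 1.5-fold higher, 17.2 ± 0.462 against 11.4 ± 0.977 CPM (SD, n = 2 each), for a log2 fold change of 0.59 (SE 0.15, edgeR adjusted p = 0.0105). Without shMYCL replicate 2 the call was lost (log2 fold change 0.56, edgeR adjusted p = 0.0704).

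SMAD6, SMAD7 and SMAD9 had negative log2 fold changes in NCI-H660 that did not pass the test. SMAD6 was at 6.43 and 6.49 CPM with shCtrl and 4.28 CPM in both shMYCL libraries (log2 fold change -0.59, SE 0.23, edgeR adjusted p = 0.074). SMAD7 was at 14.9 and 15.9 CPM with shCtrl and 10.9 and 12.6 CPM with shMYCL (log2 fold change -0.39, SE 0.16, edgeR adjusted p = 0.078). SMAD9 was at 40.01 and 31.4 CPM with shCtrl and 29.2 and 28.9 CPM with shMYCL (log2 fold change -0.30, SE 0.13, edgeR adjusted p = 0.12). Their libraries did not overlap between the groups, but with 2 libraries a group an exact permutation test cannot go below p = 0.33. How many of all genes tested separate in this way was not counted, so no result is drawn from it. SMAD6 rests on 65 to 120 counts per library.

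**Figure D2:**
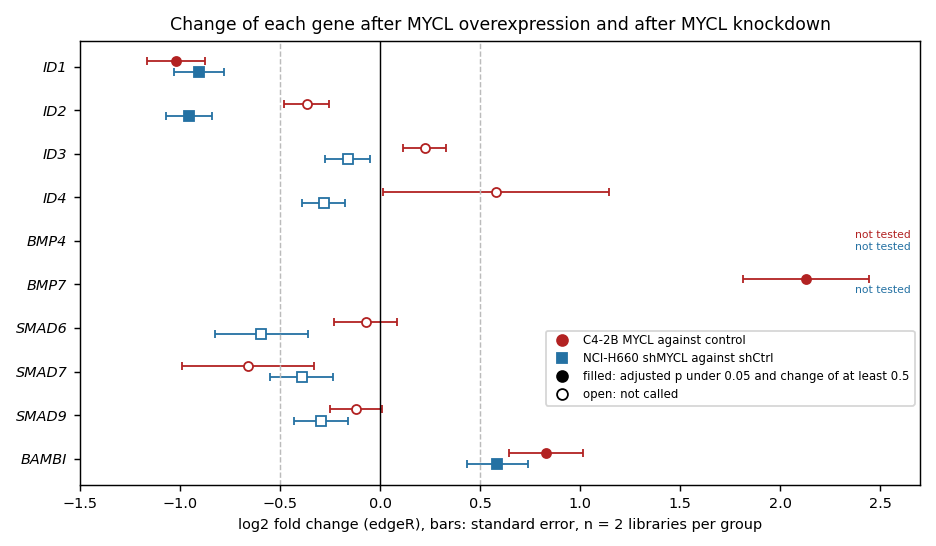
Log2 fold change of each gene by edgeR (horizontal axis) after MYCL overexpression in C4-2B (red circles) and after MYCL knockdown in NCI-H660 (blue squares), with standard errors as bars, filled symbols for called genes and dashed lines at 0.5 in either direction. ID1 lay near -1 and BAMBI above 0.5 in both comparisons, and ID2 was filled in NCI-H660 only.

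The difference between the lines was tested directly by an interaction term, taken as the effect of the higher over the lower MYCL level in C4-2B minus that in NCI-H660. Of 19605 genes tested 9.59% were called higher and 8.33% lower, against 1 and 3 of the 9 members tested. For ID1 the interaction was -1.93 (SE 0.19, edgeR adjusted p = 3.98e-05), since ID1 was lower in the library pair with more MYCL in C4-2B and higher in that pair in NCI-H660. For ID2 it was -1.33 (SE 0.16, edgeR adjusted p = 0.000139), and for BAMBI it was 1.41 (SE 0.24, edgeR adjusted p = 0.0015).

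SMAD7 was called at -1.05 (SE 0.31, edgeR adjusted p = 0.0308), a call that was lost in 12 of 17 alternatives, where the adjusted p ran from 0.0176 to 0.132 over all of them. SMAD6 at -0.67 (SE 0.27, edgeR adjusted p = 0.103) and SMAD9 at -0.42 (SE 0.20, edgeR adjusted p = 0.168) were not called. Neither were ID3 at 0.055 (SE 0.15, edgeR adjusted p = 0.887) and ID4 at 0.32 (SE 0.43, edgeR adjusted p = 0.677). BMP7 passed the filter and was not called, but with all NCI-H660 libraries at 0 its fitted value has no usable error and is not given. The overexpression and the knockdown changed MYCL by different amounts, so this term compares the contrasts as they were made and not effects per unit of MYCL.

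The shCtrl libraries were compared with the C4-2B control libraries to place the members in the neuroendocrine and the adenocarcinoma line. All 4 ID genes rose in NCI-H660, as did SMAD7, SMAD9 and BAMBI, while SMAD6 and BMP7 fell. Of 18748 genes tested 37.4% were called higher and 34.2% lower, against 7 and 2 of the 9 members tested, and the members' median log2 fold change was 2.20 against 0.040 over all genes. Cell line and vector differ together here, in separate cultures of the same stated medium, and cannot be told apart. These control libraries are the same ones used in the comparisons above.

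ID4 rose from 0.558 and 0.941 CPM in C4-2B to 188 and 180.2 CPM in NCI-H660, a log2 fold change of 7.98 (SE 0.16, edgeR adjusted p = 5.74e-12), the largest among the members with counts in both lines. ID2 rose 13.1-fold, from 16.6 and 16.5 to 239 and 198 CPM (log2 fold change 3.72, SE 0.12, edgeR adjusted p = 8.52e-11). ID1 rose 5.03-fold, from 14.6 and 16.8 to 79.0 and 78.2 CPM (log2 fold change 2.33, SE 0.11, edgeR adjusted p = 2.67e-09). For none of them did the lines overlap.

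ID3 rose from 24.4 and 22.5 to 99.3 and 116 CPM (log2 fold change 2.20, edgeR adjusted p = 4.14e-09), and SMAD7 from 2.20 and 2.60 to 14.2 and 15 CPM (2.61, adjusted p = 3.02e-07). SMAD9 had a log2 fold change of 0.88 (edgeR adjusted p = 0.000194) and BAMBI one of 0.62 (0.0155). SMAD6 went the other way, from 8.80 and 9.68 to 6.12 and 6.16 CPM (log2 fold change -0.59, edgeR adjusted p = 0.016). BMP7 was at least 12.1-fold lower in NCI-H660, with the libraries at 0 set to a floor of 3 counts each.

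Several of the smaller differences depended on a setting. The SMAD6 call was lost with DESeq2 (log2 fold change -0.56, adjusted p = 0.0659) and without C4-2B control replicate 2 (edgeR log2 fold change -0.53). SMAD6 was slightly higher in NCI-H660 in TPM that was not centred. In limma on TPM centred on each library's median, SMAD6 was lower there and called (-0.64, adjusted p = 0.00544). The BAMBI call was lost without C4-2B control replicate 2 (edgeR log2 fold change 0.42, adjusted p = 0.132) and in limma on TPM centred on each library's median (0.43, adjusted p = 0.0492, under the fold threshold).

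The ID genes were then set against the E proteins that they bind. Summed over the 4 ID genes, the C4-2B control libraries held 78.2 and 80.7 TPM, the C4-2B MYCL libraries 68.3 and 58.7, the shCtrl libraries 954 and 865 and the shMYCL libraries 627 and 581. TCF3, TCF4 and TCF12 summed to 41.1 and 42.8 TPM in C4-2B control, 34.4 and 33.6 in C4-2B MYCL, 109 and 108 in shCtrl and 124 and 129.5 in shMYCL. Both MYCL libraries in C4-2B were below their controls in both sums. In NCI-H660 the knockdown libraries were lower in the ID sum and higher in the E protein sum. On log2(TPM + 1) the median change of all genes was -0.14 in C4-2B, 0.013 in NCI-H660 and 0.57 between the controls. Sums set against each other across groups carry that shift of scale. The ratio of the sums was 1.90 and 1.88 in C4-2B control and 1.98 and 1.75 in C4-2B MYCL, with overlap, against 8.75 and 8.02 in shCtrl and 5.07 and 4.49 in shMYCL, without overlap.

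**Figure D3:**
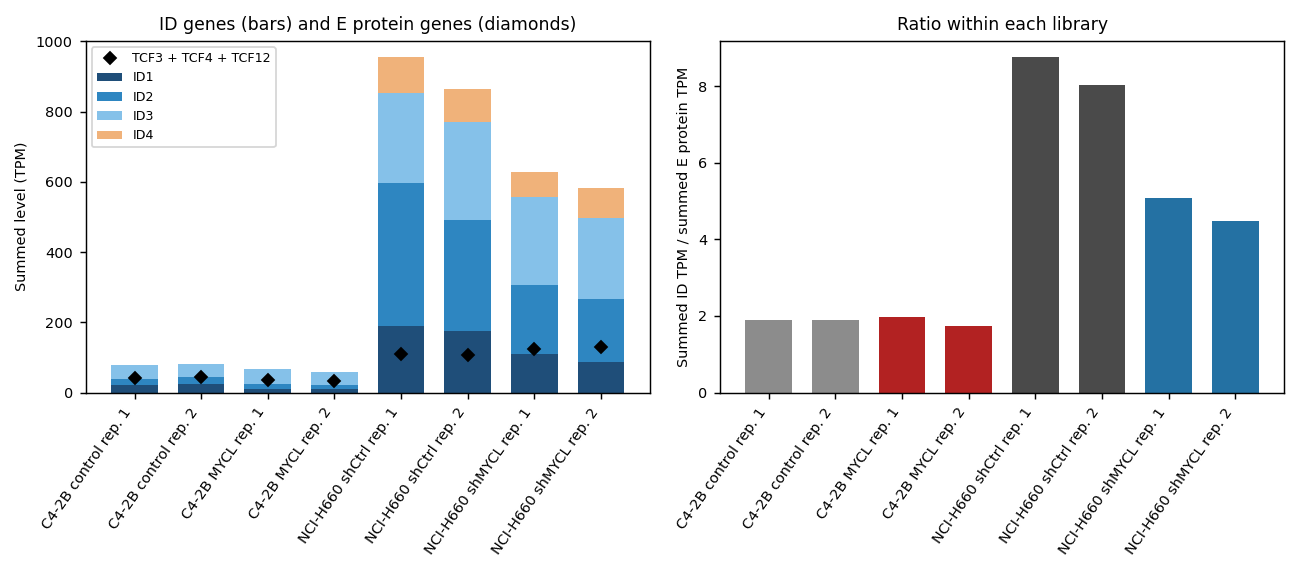
Left, summed TPM of the 4 ID genes per library (stacked bars) with the summed TPM of TCF3, TCF4 and TCF12 (diamonds); right, the ratio of the sums in each library. The ratio stayed between 1.75 and 1.98 in C4-2B and fell from 8.75 and 8.02 with shCtrl to 5.07 and 4.49 with shMYCL.

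The make-up of the ID pool differed as well. ID1 made up 27.5% and 31.5% of the ID sum in C4-2B control and 15% and 18.4% in C4-2B MYCL, while ID3 made up 49.6% and 45.7% in control and 65.3% and 60.5% with MYCL. ID2 made up 42.7% and 36.7% in shCtrl and 31.3% and 30.7% in shMYCL. ID4 took at most 0.870% in C4-2B, and 10.5% to 14.6% in NCI-H660. With 2 libraries a group an exact permutation test of these shares cannot go below p = 0.33, so they are given as values.

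Neither TCF3 nor TCF12 was called in either perturbation. TCF3 had a log2 fold change of -0.19 (edgeR adjusted p = 0.101) in C4-2B and 0.15 (0.343) in NCI-H660, and TCF12 one of -0.04 (0.682) and 0.18 (0.237). TCF4 fell in C4-2B from 3.74 to 1.72 CPM (log2 fold change -1.11, edgeR adjusted p = 0.0213) and had 1 to 4 counts per library in NCI-H660.

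The other genes of the pathway were taken from lists of ligands, receptors, SMADs, inhibitors, antagonists and targets, with 105 names besides the members. In C4-2B 15 of the 65 tested (23.1%) rose after MYCL overexpression and 7 (10.8%) fell, and their median log2 fold change was 0.076. In NCI-H660 11 of the 66 tested (16.7%) rose after knockdown and 12 (18.2%) fell, with a median of -0.070. The shares over all genes are those given above for each comparison.

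**Figure D4:**
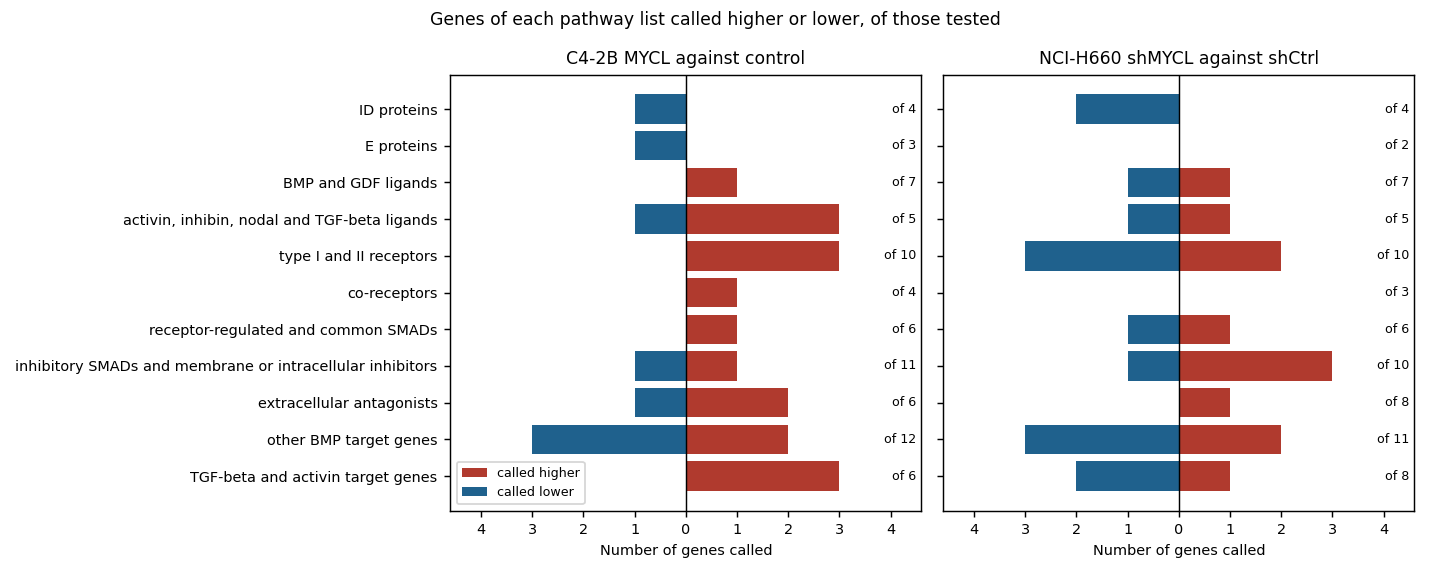
Number of genes of each pathway list, members included, called higher (red, right) or lower (blue, left) after MYCL overexpression in C4-2B and after MYCL knockdown in NCI-H660, with the number tested at the edge. The type I and II receptors had 3 higher and 0 lower of 10 in C4-2B, and 2 higher and 3 lower of 10 in NCI-H660.

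In C4-2B the receptor-regulated and common SMADs SMAD1 (log2 fold change -0.15, edgeR adjusted p = 0.247), SMAD5 (0.07, 0.526) and SMAD4 (0.15, 0.173) were not called, nor was the type I receptor BMPR1A (-0.37, 0.0247), which did not reach the fold threshold. INHBE, which encodes an activin subunit, rose from 0.416 ± 0.411 to 5.44 ± 2.02 CPM (log2 fold change 3.6, edgeR adjusted p = 0.00152), and its control libraries had 23 and 3 counts. INHBB rose by 0.71 (0.0344), the activin receptor ACVR1B by 0.66 (0.000526) and SMAD3, which transmits activin and TGF-beta signals, from 8.31 to 15.5 CPM (0.90, 0.00218).

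The inhibitors and antagonists moved in both directions in C4-2B. SKI, a corepressor that binds SMAD complexes, fell from 69.8 to 44.6 CPM (log2 fold change -0.65, edgeR adjusted p = 0.000572), and the BMP antagonist NBL1 fell by 0.73 on the log2 scale (0.00353). FSTL1, a secreted follistatin-like glycoprotein, rose by 0.59 (0.0127). Among other BMP target genes UNC5B rose by 1.78 (0.00109) and ZNF503 by 1.02 (0.0223), while TLE1 fell by 0.78 (0.00577) and RUNX2 by 0.76 (0.0269). Of the TGF-beta and activin targets LTBP2 rose by 1.69 (0.000531), COL1A1 by 0.74 (0.00227) and TAGLN by 0.71 (0.0147), and none of the 6 tested fell. The remaining calls, outside the naming rule, were higher TGFB1, ACVRL1, AMHR2, ENG and CHRD and lower TGFB3 and DLX1, and all but DLX1 were below 3 CPM in both groups.

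In NCI-H660 ligands, receptors and SMADs were among the calls. BMP3, the most abundant ligand of the list there, fell from 355 ± 81.2 to 222 ± 15.2 CPM (SD, n = 2 each; log2 fold change -0.68, edgeR adjusted p = 0.0018), and BMP6 rose from 17.4 to 30.5 CPM (0.81, 0.00212). The type I receptor BMPR1B fell from 14.7 ± 3.30 to 4.67 ± 0.268 CPM (log2 fold change -1.65, edgeR adjusted p = 4.12e-05) and the type II receptor BMPR2 fell by 0.56 (0.00289). ACVR1 rose by 0.68 (0.00588) and ACVR2A by 0.64 (0.0244), and BMPR1A stayed uncalled at -0.03 (0.864).

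SMAD5, a receptor-regulated SMAD of the BMP branch, fell from 191 ± 22.9 to 102 ± 1.15 CPM (SD, n = 2 each; log2 fold change -0.91, edgeR adjusted p = 3.78e-05). The common SMAD, SMAD4, rose from 131 to 201 CPM (0.62, 0.000473), and SMAD1 was at 36.3 and 44.1 CPM (0.28, 0.0894). FKBP1A, which binds type I receptors and keeps them inactive, fell by 0.83 on the log2 scale (5.55e-05). SKI rose by 0.63 (0.000975), the ubiquitin ligase SMURF1 by 0.52 (0.00628) and the secreted BMP antagonist GREM1 by 0.93 (0.00045).

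Target genes other than the ID genes had no common direction in NCI-H660. ATOH8 fell by 0.90 (edgeR adjusted p = 0.0016) and DLX5 by 0.70 (0.0042), while HEY1 rose by 0.74 (0.00211) and TBX3 by 0.70 (0.000306), all on the log2 scale. CCN2 fell by 1.58 (0.00834), LTBP2 fell by 0.58 (0.00276) and TAGLN rose by 1.22 (0.0114). The ligand genes TGFB2 and INHBE were at 0.907 and 35.4 CPM with shCtrl and at 3.02 and 21.8 CPM with shMYCL (log2 fold changes 1.73 and -0.70, edgeR adjusted p = 0.00555 and 0.00511). ACVR1C and UNC5B, which fall outside the naming rule, also fell (-0.55, 0.0469 and -0.53, 0.0136).

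The overexpression and the knockdown share no library, so their calls can be set side by side. ID1 and BAMBI, 2 of the 3 members called in each line (66.7% of each), were called in both, and both moved in the same direction in both. Over all genes, those called in both made up 17.8% of the C4-2B calls and 21.7% of the NCI-H660 calls. Of the other pathway genes 5 were called in both, 22.7% of the 22 called in C4-2B and 21.7% of the 23 called in NCI-H660. INHBE, LTBP2 and UNC5B rose with MYCL overexpression and fell with knockdown, SKI did the reverse and TAGLN rose in both. Of the 596 genes called in both over all genes 204 (34.2%) moved in the same direction and 392 in opposite directions, so ID1 and BAMBI belong to the smaller of these groups.

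The other pathway genes were also compared between the lines at baseline. Of 77 tested between shCtrl and C4-2B control, 34 (44.2%) were higher and 24 (31.2%) lower in NCI-H660, with a median log2 fold change of 0.36. Over all genes tested 37.4% were higher and 34.2% lower, with a median of 0.040. BMP3 had no counts in C4-2B control and was at least 2896-fold higher in NCI-H660, and BMP2 had 110 and 127 counts in shCtrl against 1 and 0. GREM1 was at least 80.0-fold and DLX5 at least 139.7-fold higher in NCI-H660. PMEPA1, a TGF-beta-induced inhibitor, had 6314 and 4656 counts in C4-2B control and 0 and 2 in shCtrl. INHBB was at least 29.0-fold and MSX2 at least 25.5-fold lower in NCI-H660.

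Further baseline differences lay in the receptors and SMADs. SMAD3 (log2 fold change 2.94, edgeR adjusted p = 1.18e-09), SMAD4 (1.45, 2.67e-08), ACVR2B (2.12, 5.92e-09) and RGMA (1.88, 5.48e-05) were higher in NCI-H660, as were INHBE (6.09, 1.88e-08), LTBP2 (3.92, 3.65e-10) and TCF3 (1.11, 7.39e-07). The co-receptor RGMB (-2.92, 4.4e-09), TOB1 (-1.36, 1.02e-07) and TAGLN (-2.25, 1.75e-06) were lower. TCF4 had 101 and 104 counts in C4-2B control and 2 and 1 in shCtrl, and the receptor gene ACVR1C had 2 and 3 counts in C4-2B control and 166 and 193 in shCtrl.

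The genes whose pattern was most like that of ID2, the ID gene with the highest mean CPM, were LNPEP (Pearson r = 0.993), CCND1 (0.990) and SLC36A1 (0.987), over the 8 libraries on log2(CPM + 1) after subtracting each line's mean, among 9073 genes. SMAD9 had the highest mean CPM of the other members, though its mean TPM was below that of BAMBI in every group. The genes most like SMAD9 were RYBP (0.985), ZNF644 (0.957) and ZNF260 (0.957). These values describe the libraries, which share their groups and their depth, and carry no test.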

How the data were processed

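Bulk RNA-seq libraries from C4-2B and NCI-H660 cells were grouped by the deposited sample labels into 4 groups of 2. The authors deposited estimated counts per gene for 78691 genes, of which 21.5% to 24.0% per library were not whole, and TPM for 65535 genes, on hg38. The TPM table holds all 10 members but fewer genes than the count table. Calls and medians over all genes on TPM therefore come from a smaller table than those on counts. The program that made the counts, its strand setting and the filters are not given in the sources used here.

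Counts were rounded and each comparison was fitted alone with the edgeR 4.0.16 quasi-likelihood test (R 4.3.3; TMM, filterByExpr), with the interaction fitted on all 4 groups. P-values were adjusted by Benjamini-Hochberg over all genes tested, and calls needed both an adjusted p under 0.05 and a log2 fold change of 0.5 or more in size. CPM are TMM-normalized within each fit. Fold bounds against groups at 0 use a floor of 3 counts per library. At these depths a member with few counts, such as ID4 in C4-2B with 11 to 26, is measured with wide error, and all errors rest on 2 libraries a group.

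Alternatives were relative log expression size factors, DESeq2 1.42.0, no filter, a joint fit of the 4 groups, a minimum of 10 counts per library, a replicate block, limma 3.58.1 on log2(TPM + 1) or log2(TPM + 0.1) (TPM of at least 1 in 2 libraries, or no filter), other fold thresholds, and each library left out. Centring each library on its median TPM was added after seeing the data. Fits were tested on simulated data.

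The members and gene lists were chosen with earlier results of these data known. Named genes are all members, MYCL, and from each of 11 pathway lists the called genes with a log2 CPM of at least 1, at most 4 per list and perturbation and 2 per list between controls, by largest change. List genes given with values where they were not called (SMAD1, SMAD4, SMAD5, BMPR1A, TCF3 and TCF12), and called genes said to lie outside the rule, were chosen after their values were seen. For ID2 and SMAD9 the 3 genes with the highest Pearson correlation were named.

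Promoter windows came from RefSeq on GRCh38.p14 and gene positions from GENCODE on hg38. The ID2 window was not printed because 202 of its bases lie in an exon of another ID2 transcript, and protein sequences were not used here. A gene that the naming rule selects between the controls is not reported here.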

Additional observations from a re-analysis of the deposited data

Results flagged for a closer look

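The effect of the higher over the lower MYCL level differed between C4-2B and NCI-H660 for 4 members by the edgeR interaction test, which compared 2 libraries per group. The difference was -1.93 on the log2 scale for ID1 (adjusted p = 3.98e-05), -1.33 for ID2 (adjusted p = 0.000139), -1.05 for SMAD7 (adjusted p = 0.0308) and 1.41 for BAMBI (adjusted p = 0.0015). For ID1 and BAMBI each contrast was also called alone, with the same sign after overexpression and after knockdown. For SMAD7 neither contrast was called alone, and the call of the difference was lost in 12 of 17 alternatives. No group had enough libraries for a test of single outlying libraries.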

How the results depend on the processing

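Over all alternatives 445 values of single members kept their direction and their side of the threshold, 22 lost a call, 7 gained 1 and 16 reversed. The reversals were all of uncalled values except that of SMAD6 between the controls, which was 0.069 in limma on log2(TPM + 1) with and without a filter and 0.086 with a pseudocount of 0.1. In C4-2B, leaving out 1 library gave -0.26 to 0.038 for SMAD9 and -0.22 to 1.10 for ID4. The interaction of ID3 was -0.081 on log2(TPM + 1) with and without a filter, -0.080 with a pseudocount of 0.1 and -0.062 to 0.17 with 1 library left out. That of ID4 was -0.24, -0.24, -0.089, -0.15 with centring, and -0.45 to 0.86. Of the 3 members called, 1 remained in C4-2B and 0 in NCI-H660 in unfiltered limma, where 1 gene was called in NCI-H660 in all, and 0 remained in NCI-H660 at a minimum log2 fold change of 1. Leaving out 1 library gave 3 to 3 members called in C4-2B, 2 to 3 in NCI-H660, 7 to 9 between the controls and 3 to 4 for the interaction. The cause was not tested, beyond the fewer calls that a stricter threshold leaves by its construction.

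Replicate numbers name the libraries only (correlations of same-numbered deviations -0.0055, -0.0031 and 0.037). With the replicate block 3, 3, 9 and 4 members and 3536, 2949, 13118 and 3436 genes were called, against 3355, 2745, 13427 and 3513 without it.

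Counts of all genes called moved by over 1.5 times to 1940 in C4-2B in unfiltered TPM, 5895 with no fold threshold and 1411 at 1. In NCI-H660 they moved to 1702, 1600 and 1692 on log2(TPM + 1), log2(TPM + 0.1) and centred TPM, 4204 with no fold threshold and 1022 at 1. Between controls the count was 8934 with at least 10 counts in every library, and for the interaction 1898 in unfiltered TPM and 1666 at 1. On log2(TPM + 1) the median log2 change of all genes was -0.14 in C4-2B, 0.57 between controls and -0.11 for the interaction, against -0.0017, 0.040 and 0.0028 with edgeR, and higher and lower calls split 1006 to 1997, 8530 to 3415 and 1054 to 1902, against 1986 to 1369, 7014 to 6413 and 1880 to 1633. Calls gained were ID2 in C4-2B (-0.51, adjusted p = 0.0126, limma, pseudocount 0.1), SMAD7 in NCI-H660 in 3 limma fits and, for the interaction, SMAD6 in 2 limma fits and SMAD9 without shCtrl replicate 2. BMP4, with at most 3 counts in a library, could not be tested at this depth.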

Other observations

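GDF1, a ligand of the list outside the naming rule and chosen here after its values were seen, had 208 counts in shMYCL replicate 1 and 0 in the other 3 NCI-H660 libraries, and 16 counts in C4-2B MYCL replicate 1 against 0 in C4-2B MYCL replicate 2. It did not pass the filter on low counts in either perturbation and was not tested.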
